A study of Mus musculus with 2 samples.

Results

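The mouse Cyp21a1 gene and its complement neighbours C4a and C4b lie in a duplicated stretch of chromosome 17, and their open chromatin was described here in the adrenal gland. The 3 genes were taken by name, out of 55450 in the GENCODE M21 annotation, each with 25 kb on both sides on the mouse build mm10. The resulting window measured 137.62 kb in 2 intervals, chr17:34703380-34768882 and chr17:34776348-34848464, and 12 annotated genes overlapped it. DNase-seq, in which the enzyme DNase I cuts accessible DNA and the cut ends are sequenced, had been done on 2 samples, biological replicates 1 and 2 of 1 group. Both were adrenal glands of female mice aged 10 days of the strain B6CASTF1/J, first-generation hybrids between C57BL/6J and CAST/EiJ. The labels name 3 females per sample and 1 donor record for both samples, and no treatment. With 1 group there was no condition to compare, so values are set between the replicates, between the copies of the duplication, and between the locus and the genome. Nothing in the labels says that the samples came from separate litters, and no test was run.

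Cyp21a1 encodes steroid 21-hydroxylase, which converts progesterone towards the mineralocorticoids and glucocorticoids of the adrenal cortex. C4b encodes complement component C4, which is cleaved in the classical and lectin pathways and tags surfaces for the C3 convertase. C4a encodes Slp, the sex-limited protein, a close relative of C4 in mice. In mice, the genes sit in the class III region of the major histocompatibility complex, where a unit of a tenascin gene, a 21-hydroxylase gene, a C4 gene and a Stk19 gene is present in tandem copies. One copy holds Tnxb, the tenascin XB gene, the pseudogene Cyp21a2-ps, C4b and the pseudogene Stk19-ps1, and the other holds the pseudogene Tnxa, Cyp21a1, C4a and Stk19. An adrenal-specific control element of Cyp21a1 has been described in mice upstream of it, within the Slp gene.

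The copies were alike enough to limit what short reads can tell. Within the window, 58.83% of bases lay in 1 of 34 alignments between the copies, each of at least 200 bp and 80% identity, with a mean identity of 93.86%. The aligned stretches lay 73.12 to 92.23 kb apart. C4a was aligned over 99.92% of its bases at 96.1% identity to C4b, and Cyp21a1 over 93.56% of its bases at 96.74% identity to its copy with Cyp21a2-ps. In mm10, 36-base sequences that occur once covered 81.5% of the bases of Cyp21a1, 74.4% of C4a and 74.1% of C4b, against every base of Dxo, a neighbour outside the duplication. All values below for the duplicated genes are therefore uncertain as to copy, since the way reads with several placements were treated is not given in the sources used here. Reads from CAST/EiJ alleles were also placed on mm10, a C57BL/6J sequence.

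**Figure D1:**
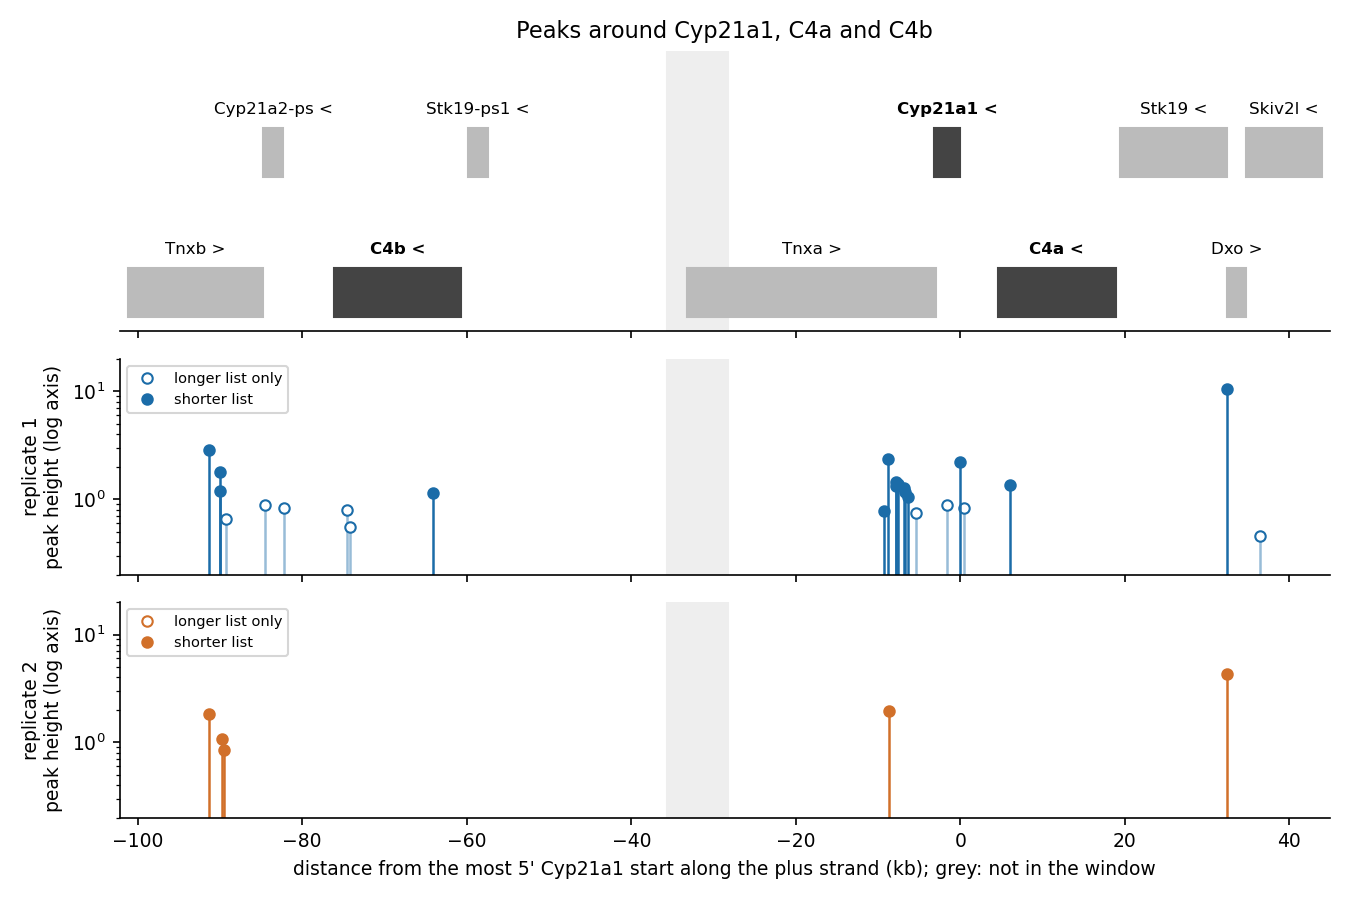
Peaks in the window by distance from the most 5' Cyp21a1 start (kb, along the plus strand), with peak height on a log axis, replicate 1 above replicate 2. Filled circles are peaks of the shorter list, open circles peaks of the longer list alone, and arrows after gene names show the strand. Replicate 1 has peaks over both copies, and replicate 2 has peaks at Tnxb, at 1 site in Tnxa and at the Stk19 and Dxo starts.

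Sequences are shown for 2 of the pairs of sites at which both copies of the duplication were open in replicate 1, 1 in the tenascin copies and 1 in the C4 copies. The first pair lies in an exon of Tnxb (chr17:34713141-34713340, mm10, plus strand) and in Tnxa (chr17:34795818-34796016, plus strand), and is the pair that both replicates called open in both copies. Capitals mark the longest footprint of replicate 1, that is, the stretch that the authors called as protected from cleavage.
Tnxb site: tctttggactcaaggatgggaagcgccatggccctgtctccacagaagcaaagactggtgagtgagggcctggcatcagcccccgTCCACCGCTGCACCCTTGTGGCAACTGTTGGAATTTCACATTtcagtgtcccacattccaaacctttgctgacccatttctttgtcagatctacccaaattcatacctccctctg
Tnxa site: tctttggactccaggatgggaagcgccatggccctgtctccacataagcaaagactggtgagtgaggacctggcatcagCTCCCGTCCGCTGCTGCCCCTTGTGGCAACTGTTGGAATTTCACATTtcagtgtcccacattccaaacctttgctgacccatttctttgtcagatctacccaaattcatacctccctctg

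The second pair lies in C4a (chr17:34810509-34810676, minus strand), within the gene where the mouse control element was described, and at its aligned position in C4b (chr17:34729815-34729982, minus strand). Capitals again mark the longest footprint of replicate 1 inside the printed stretch.
C4a site: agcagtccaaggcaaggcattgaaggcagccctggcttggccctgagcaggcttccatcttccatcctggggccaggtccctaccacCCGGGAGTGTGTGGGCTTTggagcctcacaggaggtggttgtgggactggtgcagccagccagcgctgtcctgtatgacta
C4b counterpart: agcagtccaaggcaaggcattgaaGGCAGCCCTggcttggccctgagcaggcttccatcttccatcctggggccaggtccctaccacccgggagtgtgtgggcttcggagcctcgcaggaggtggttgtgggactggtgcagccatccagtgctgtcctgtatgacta

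The Tnxb and Tnxa sequences differed at 6 of 199 aligned bases, and the C4a and C4b sequences at 4 of 168.

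The samples differed in how much was called. Replicate 1 had 98813 peaks in the shorter of its 2 deposited lists, 339116 footprints and 51.45 Mb listed at a false discovery rate (FDR) under 0.05, and replicate 2 had 55135 peaks, 241536 footprints and 34.01 Mb. In the shorter list no peak lacked a base with an FDR of 0.001 or less. Read totals were not used here, so the depth is unknown, and no error from counting can be given. The labelled tissue was checked on promoter peaks, that is, peaks within 1 kb of an annotated start. In the shorter list, all 6 cortex markers had one, 5 of them in both replicates. All 6 chromaffin markers had one, 4 of them in both. Of the capsule and fibroblast markers, 3 of 4 had a peak in both replicates. Over all protein-coding genes, 63.8% had one in both replicates and 3.68% in replicate 1 only. The chromaffin count in both replicates was near the former share. At the most 5' start alone, Cyp11a1 and Th had no peak, and Gata3 had one in replicate 1 only. None of the 4 liver markers had one, and of the 4 macrophage markers, Cd68 and Spi1 had one in replicate 1 only and Csf1r and Adgre1 had none. In a whole gland, fewer cells of a type and less accessibility per cell cannot be told apart.

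In replicate 1 the window was denser in accessible sites than the genome, and in replicate 2 this depended on its width. With 25 kb on each side it held 15 peaks in replicate 1 and 5 in replicate 2, or 10.9 and 3.63 per 100 kb, against 3.62 and 2.02 per 100 kb of the genome. Bases listed at an FDR under 0.05 numbered 7969 in replicate 1 and 2779 in replicate 2, or 57.9 and 20.2 per kb, against 18.9 and 12.5 per kb of the genome. With 10 kb on each side, replicate 1 had 14.2 peaks per 100 kb and 70.6 listed bases per kb, and replicate 2 had 1.29 and 2.83, below its genome values. There were 59 footprints in replicate 1 and 21 in replicate 2. Of the 15 peaks of replicate 1, 4 overlapped a peak of replicate 2, whereas 51.9% of all its peaks did. Some of the 15 were nested in larger ones, and they formed 11 merged regions, 4 of them shared. The genome values likewise count each listed peak. Of the 5 peaks of replicate 2, 4 overlapped a peak of replicate 1, against 91.5% over the genome.

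The difference between the replicates sat mainly in the copy that holds Tnxa, Cyp21a1 and C4a, and there mostly in Tnxa. In the aligned sequence of that copy, 4577 bases were listed in replicate 1 and 220 in replicate 2, or 105.5 and 5.07 per kb. By gene body, Tnxa had 3541 listed bases in replicate 1 and 220 in replicate 2. Cyp21a1 had 499 and C4a 319 in replicate 1, and neither had any in replicate 2. The aligned sequence of the copy with Tnxb and C4b had 2231 bases in replicate 1 and 1324 in replicate 2, or 59.1 and 35.05 per kb. Outside the duplication the window had 1161 bases in replicate 1 and 1235 in replicate 2. Whether the placement of reads between the copies has a part in this was not tested.

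At Cyp21a1, replicate 1 had a peak over the start of the gene and replicate 2 had none. The peak lay at chr17:34804401-34804600 with a height of 2.21, which was 330 whole steps of the height scale and the 77.6th percentile of that sample's peaks. It reached 39 bp upstream of the most 5' start in GENCODE and 174 bp upstream of the RefSeq start, which lies 135 bp further into the gene. Within 1 kb of the GENCODE start, 579 bases were listed at an FDR under 0.05 in replicate 1 and none in replicate 2. In the gene body 499 were listed in replicate 1 and none in replicate 2. In the longer list, replicate 1 had further peaks of 0.876 in an exon of Cyp21a1 and of 0.822 upstream of it, and replicate 2 still had none.

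Most peaks of that height were found again. In replicate 1, 5018 peaks had a height within 10% of that at Cyp21a1, and 88.4% of them overlapped a peak of replicate 2, with a median height there of 1.32 and a 5th to 95th percentile of 0.731 to 2.17. Its FDR was high for its height. Its lowest FDR was 4.13e-08, or 7.38 on the −log10 scale, against a median of 17.4 in the peaks of similar height, of which 4.86% were at or below it. The share of 88.4% is thus for peaks matched on height alone and not on FDR. Of its bases, 75.5% were covered by a 36-base sequence that occurs once in mm10, and all of them by a 76-base one.

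**Figure D2:**
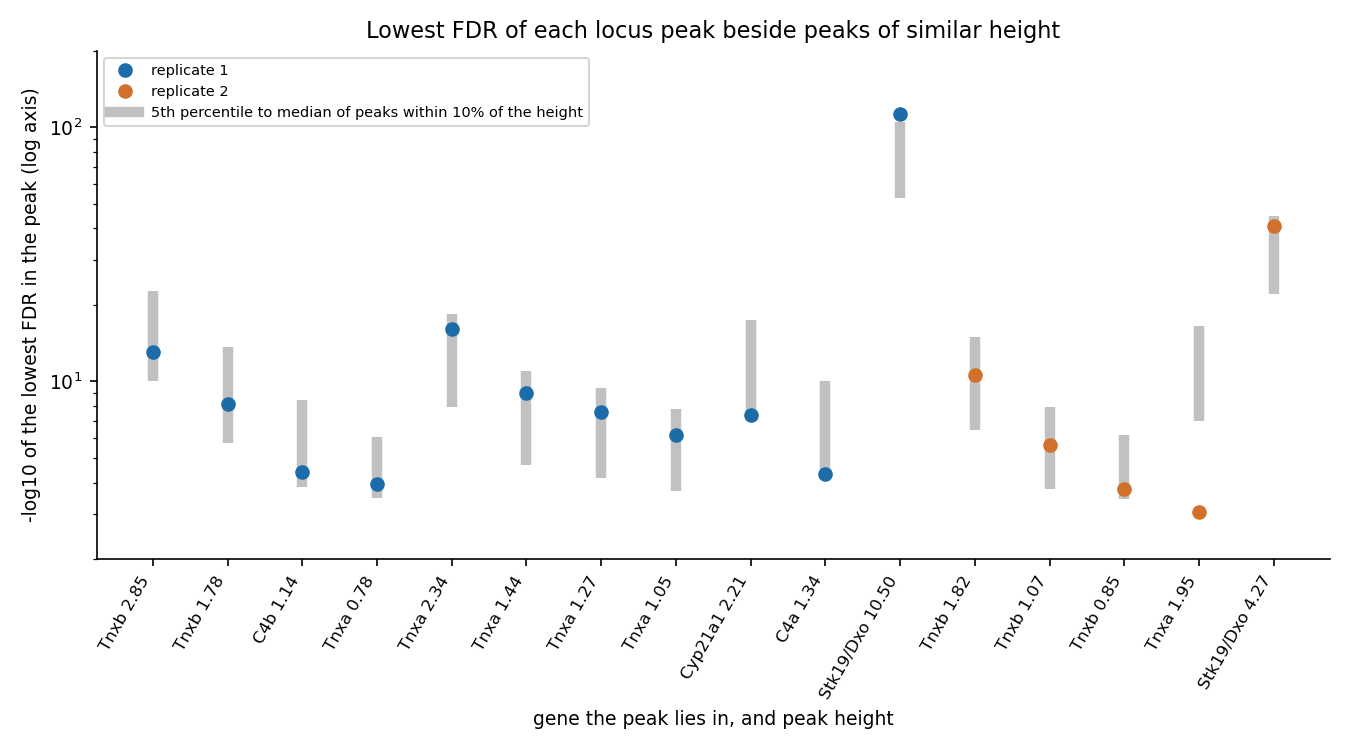
The lowest FDR in each peak of the shorter list in the window (−log10, log axis), labelled with its gene and height, peaks nested in a larger one left out. Grey bars run from the 5th percentile to the median of peaks within 10% of the height in the same replicate. The Tnxa peak of replicate 2 lies below its bar at 3.07, the Cyp21a1 peak at 7.38 and the C4a peak at 4.31 lie at the lower end, and the Stk19 and Dxo peak of replicate 1 lies above its bar at 113.2.

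Footprints inside the Cyp21a1 peak were called in replicate 1 alone. There were 3, of 7, 11 and 28 bp. The longest covered 101 to 128 bp upstream of the RefSeq start and held the letters CCAAT, the box bound by NF-Y, at 103 to 107 bp, and TTGGC, letters of the nuclear factor I site, at 104 to 108 bp, overlapping on opposite strands. The 11-bp footprint touched a TATAAA match at 8 to 13 bp upstream. A match to AAGGTCA, the letters bound by steroidogenic factor 1 (Nr5a1), a receptor that activates steroid genes in the cortex, lay at 49 to 55 bp on the minus strand, outside the footprints. Of all replicate 1 peaks, searched on both strands over 200 bp, 24% held CCAAT, 48.5% TTGGC, 5.24% TATAAA and 7.49% AAGGTCA. Among the merged sites of the locus, the letters AAGGTCA lay inside those at Cyp21a1 and at the start of Cyp21a2-ps. A match describes letters and not binding.

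The pseudogene Cyp21a2-ps had a smaller peak at the matching place. Its start lay 56 bp from a peak of 0.822 in the longer list of replicate 1, with a lowest FDR of 0.0142, and neither list of replicate 2 had a peak there. The aligned copy of the Cyp21a1 peak differed from it at 4 of 200 bases. No footprint was called in the pseudogene's peak.

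C4a had 1 peak, in replicate 1, inside the gene and far from its most 5' start. It lay in an exon at chr17:34810509-34810676 with a height of 1.34, and the merged site around it was centred 6009 bp upstream of the most 5' Cyp21a1 start. Its lowest FDR was 4.87e-05, or 4.31 on the −log10 scale, against a median of 10.1 in 8250 peaks of similar height, of which 5.03% were at or below it. It held a footprint of 19 bp, the capitals in the printed sequence. In all of C4a, 319 bases were listed under an FDR of 0.05 in replicate 1 and none in replicate 2. At the most 5' start of C4a, neither replicate listed a base within 1 kb.

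The C4b counterpart was open in the longer list of replicate 1 alone. The peak at chr17:34729862-34730034 had a height of 0.795 and a lowest FDR of 0.00115. Its footprint of 9 bp stood at another place in the printed sequence than that of C4a. Both printed sequences held TTGGC at bases 37 to 41, outside the capitals. C4b also had a peak of 1.14 in the shorter list of replicate 1 at chr17:34740308-34740498, with no listed base at its aligned position in C4a. There the copies differed at 25 of 280 bases, and 36-base sequences that occur once covered the whole site. As with C4a, replicate 1 listed no base within 1 kb of the most 5' C4b start. In the gene, 541 bases were listed in replicate 1 and none in replicate 2.

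**Figure D3:**
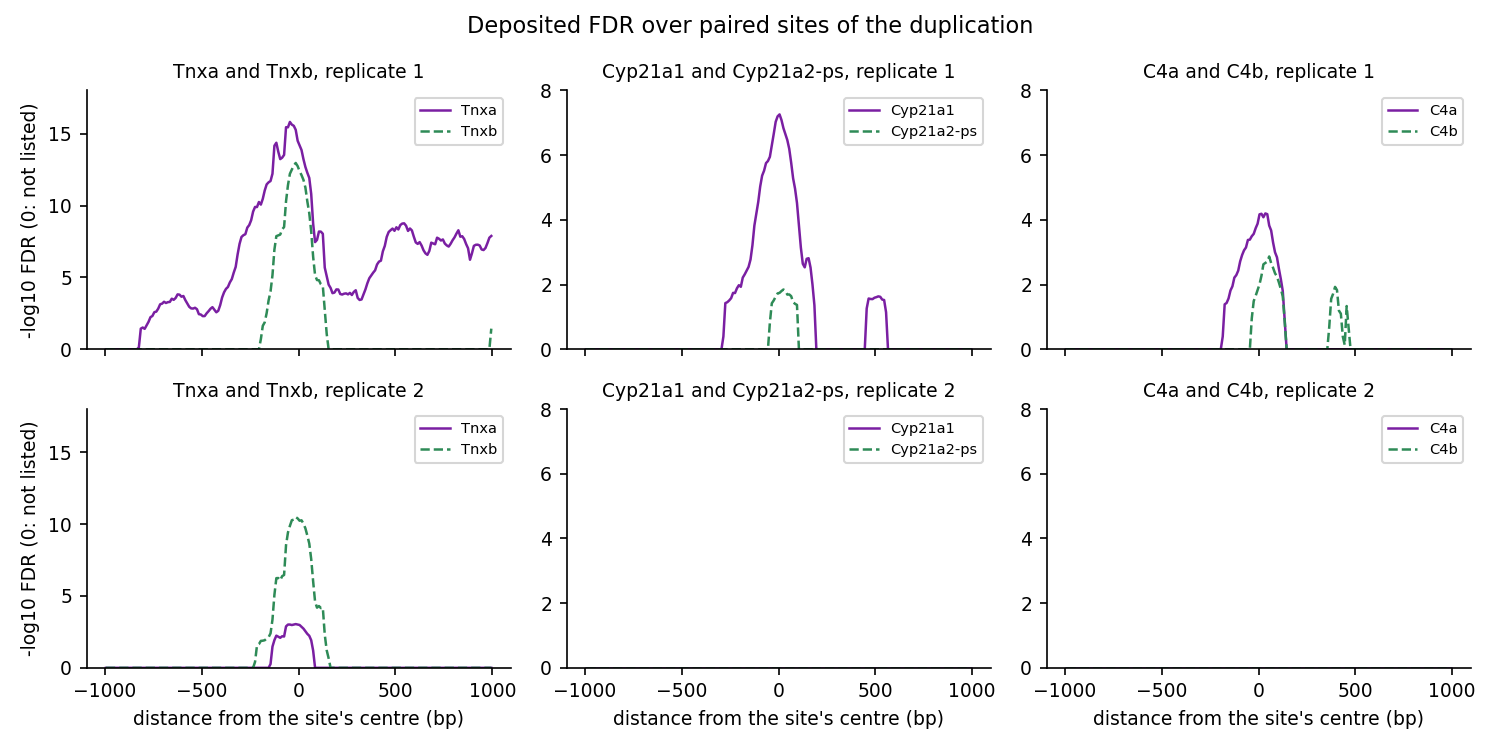
Deposited FDR (−log10, 10-bp means, 0 where not listed) by distance from the centre of paired sites in the duplication (bp), for replicate 1 above replicate 2. Solid purple lines are the copy with Cyp21a1 and C4a, dashed green lines the copy with Cyp21a2-ps and C4b. In replicate 1 the purple line has the higher summit in all 3 pairs, and in replicate 2 the Tnxb summit is above the Tnxa one and the other 2 pairs list nothing.

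By promoter call, none of the 3 members was open in both replicates, against 63.8% of the 21938 protein-coding genes. Cyp21a1 and C4a were open in replicate 1 only, as were 3.68% of protein-coding genes, and C4b in neither. The C4a call rested on internal starts in GENCODE, the nearest at 34811387, and GENCODE M21 lists C4a as a processed transcript.

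Of the 4 regions that both replicates called, 3 lay in the tenascin copies. The Tnxb site printed above had a height of 2.85 in replicate 1 and 1.82 in replicate 2, 1.57-fold higher in replicate 1. The Tnxa site had 2.34 in replicate 1 and 1.95 in replicate 2, 1.198-fold higher in replicate 1. Its log2 ratio of 0.26 lay at the 17.05th percentile of all shared regions. In replicate 2, however, the Tnxa peak was 71 bp long and its lowest FDR was 0.000855, and 0.0301% of the 3317 peaks of similar height were at or below that on the −log10 scale. The Tnxb peak of the same replicate had a lowest FDR of 2.64e-11.

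Both copies carried a long footprint at the same aligned place. In Tnxb it was 42 bp in replicate 1 and 39 bp in replicate 2, and in Tnxa 47 bp in replicate 1, with 2 footprints of 25 and 14 bp inside that stretch in replicate 2. Of all footprints of the genome, 8.02% in replicate 1 and 7.28% in replicate 2 were at least 25 bp long. The capitals of both printed sequences hold a match to CCACNAGG, letters like part of the site of the insulator protein CTCF, on the minus strand, at bases 99 to 106 of the Tnxb sequence and 98 to 105 of the Tnxa sequence. This motif was added after the sequences were seen, and 7.22% of replicate 1 peaks held it. The CTCF core letters chosen beforehand, AGGGGGC, had no match in either printed sequence, and 8.46% of replicate 1 peaks held them. Over the whole window, 49 of the 59 footprints of replicate 1 lay in aligned sequence and 13 of those overlapped a footprint in the other copy, against 14 of 21 and 3 in replicate 2. Footprints of both copies were counted, so a pair enters these counts from each side. An overlap of 1 bp was enough.

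Next to these sites the copies parted between the replicates. In Tnxb, a site at chr17:34714301-34714980 had heights of 1.78 in replicate 1 and 1.07 in replicate 2, and replicate 2 had a further peak of 0.849 at chr17:34715005-34715086. Tnxa had peaks of 1.44, 1.27 and 1.05 over the stretch from 34796281 to 34798376 in replicate 1, and one of 0.775 on the other side of its printed site. Replicate 2 had none of these, and over the whole of Tnxa 3541 bases were listed at an FDR under 0.05 in replicate 1 and 220 in replicate 2. The aligned Tnxb copies of the Tnxa peaks of 1.44 and 1.27 had 279 and 508 listed bases in replicate 1, and 108 and 619 in replicate 2. Those of the Tnxa peaks of 1.05 and 0.775 had no listed base in either replicate.

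The highest peak of the window lay outside the duplication. At the divergent starts of Stk19, named as a serine/threonine kinase gene, and Dxo, an RNA decapping and exonuclease enzyme, the height was 10.5 in replicate 1 and 4.27 in replicate 2, 2.46-fold higher in replicate 1. All 36-base sequences there occurred once. A footprint of 25 bp in replicate 1 and one of 28 bp in replicate 2 overlapped by 23 bp. Skiv2l, the helicase of the cytoplasmic exosome's Ski complex, had a shared promoter peak of 12.3 in replicate 1 and 4.35 in replicate 2, beyond the edge of the window. Tnxb, Tnxa, Stk19-ps1, Cyp21a2-ps, Mir6970 and Mir6971 had no promoter peak in the shorter list. Over the 4 shared regions of the window, heights in replicate 1 over those in replicate 2 had a median log2 ratio of 0.69, with a range of 0.26 to 1.297, against 0.73 over 48299 shared regions of the genome.

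Of 12 genes of adrenal steroid synthesis, Cyp21a1 included, 8 had a shared promoter peak, a share near the 63.8% of all protein-coding genes. Cyp21a1 and Mc2r had one in replicate 1 only, where the share of all protein-coding genes was 3.68%, and Hsd3b1 and Cyp11b2 had none. The highest were Por, the reductase that passes electrons to microsomal P450 enzymes such as 21-hydroxylase (14.0 in replicate 1 and 5.89 in replicate 2), and Fdxr, the ferredoxin reductase of the mitochondrial P450 enzymes (11.05 and 4.30). They were followed by Fdx1, the ferredoxin (6.87 and 3.72), and Mrap, which brings the corticotropin receptor to the cell surface (5.23 and 2.14). Mc2r, the corticotropin receptor, had a height of 0.802 in replicate 1. Cyp11a1, the side-chain cleavage enzyme, stood at 3.74 in replicate 1 and 1.87 in replicate 2, Star, the cholesterol carrier, at 3.58 and 1.28, and Cyp11b1, the last enzyme of corticosterone synthesis, at 1.51 and 0.812. The heights of Por and Cyp11a1 came from other annotated starts. Neither gene had a peak within 1 kb of its most 5' start in either replicate. In replicate 1, the Cyp21a1 peak of 2.21 thus lay between those of Star and Cyp11b1, both of which were open in replicate 2.

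Of 29 complement genes, 9 had a shared promoter peak, 4 had one in replicate 1 only, and 16 had none in the shorter list, beside shares of 63.8% shared and 3.68% in replicate 1 only over all protein-coding genes. The highest were C2, which joins cleaved C4 in the C3 convertase (4.86 in replicate 1 and 4.48 in replicate 2), and Cd59a, an inhibitor of the membrane attack complex (4.57 and 2.17). C8g, a subunit of that complex, stood at 4.29 and 2.40, and Cd55, which speeds the decay of the convertases, at 3.98 and 2.75. The C2 peak lies near the start of the neighbouring gene Ehmt2. C3, the protein the convertase cleaves, stood at 2.17 in replicate 1 and 1.69 in replicate 2. Within 1 kb of its most 5' start alone, C3 had a peak of 1.76 in replicate 1 and none in replicate 2. Among those open in replicate 1 only were C4a at 1.34, C3ar1 at 0.775 and Hc at 0.475. C4a and Hc had no peak within 1 kb of their most 5' starts. The genes with none were C4b, C1qa, C1qb, C1qc, C6, C7, C8a, C8b, C9, Cfb, Cfd, Cfi, Cfp, Masp2, C4bp and C5ar1.

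**Figure D4:**
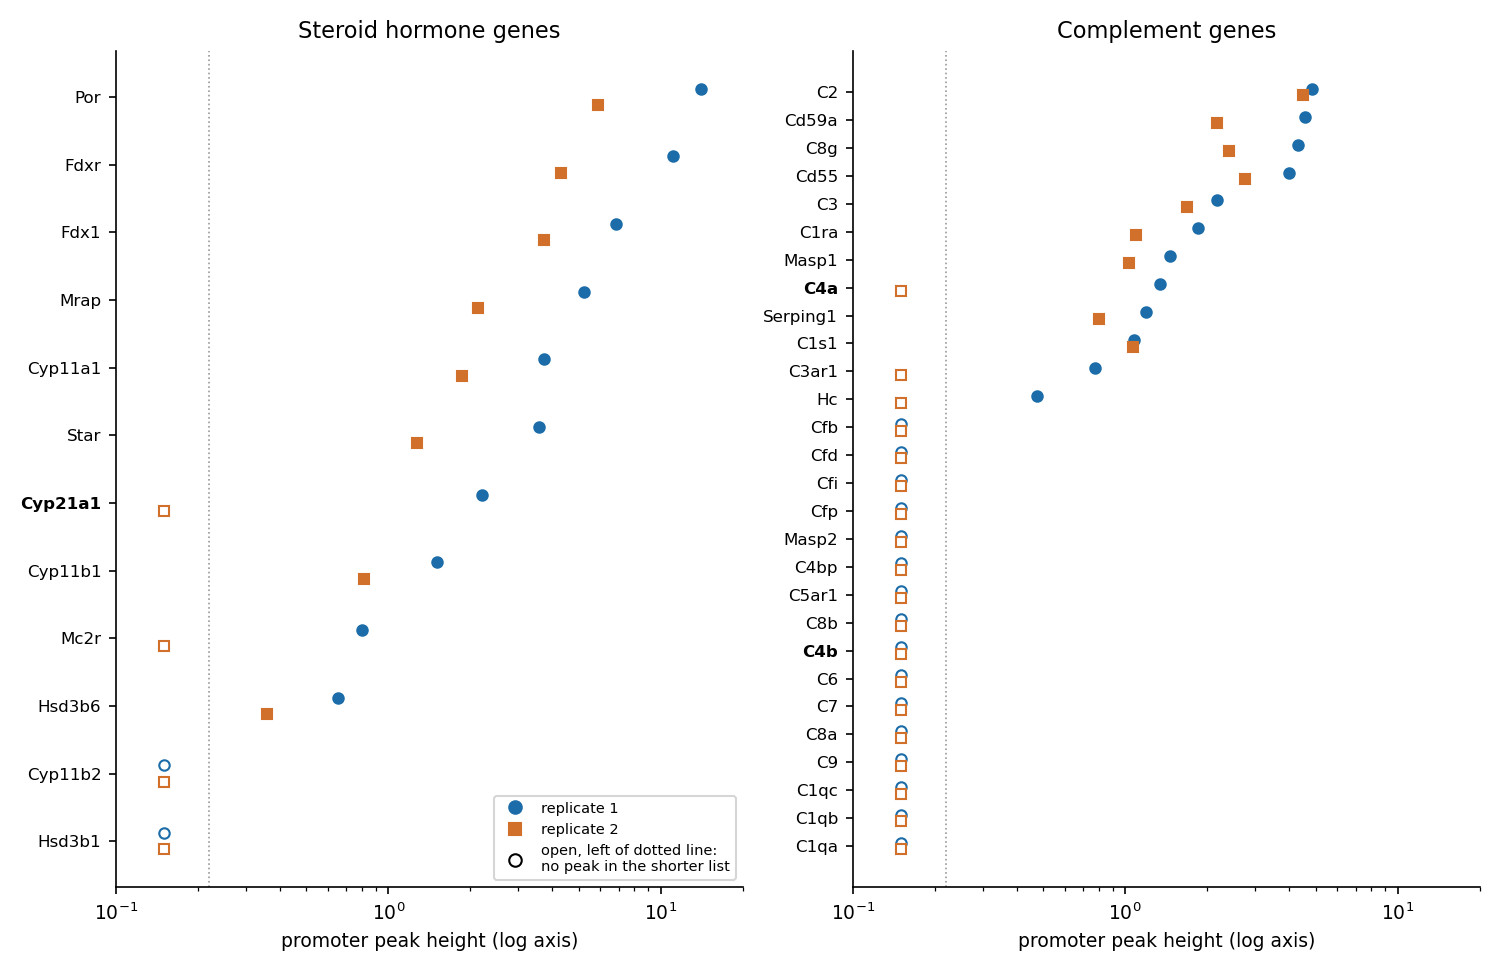
Highest promoter peak height (log axis) of the steroid hormone and complement genes in the shorter list, 1 complement gene left out, with replicate 1 as circles above replicate 2 as squares. Open symbols left of the dotted line have no peak. Cyp21a1 stands at 2.21 in replicate 1 with no peak in replicate 2, C4a at 1.34 with none, and C4b has none in either replicate.

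Over all 4 peak lists the window held 20 merged sites, 18 of them in the duplication. Replicate 1 had a peak at all 20 and replicate 2 at 4, and 9 sites were in the longer list alone. Of the 18 sites in the duplication, 10 had a listed peak at the aligned place in the other copy and 8 had none. Sequences of 36 bases that occur once covered 90.8% of the 4257 bases in peaks of the shorter lists and 78.4% of the window. At 76 bases, once-occurring sequences covered every base in these peaks and 91.1% of the window.

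**Figure D5:**
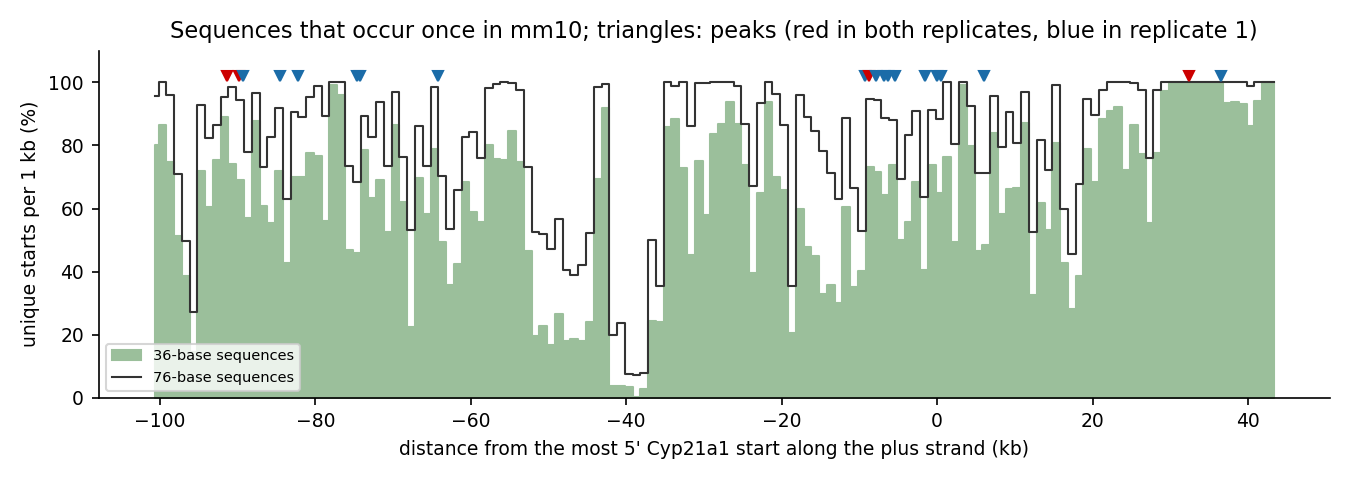
Share of sequence starts per 1 kb (%) whose following 36 bases (green) or 76 bases (black line) occur once in mm10, by distance from the most 5' Cyp21a1 start (kb), the stretch between the 2 intervals included. Triangles mark the 20 merged sites, red for the 4 in both replicates and blue for those in replicate 1. The 36-base share is lowest, 0.2%, at -38.7 kb, between Stk19-ps1 and Tnxa and outside the member genes. It is also below its maximum over Cyp21a1, C4a and C4b, and stays near its maximum around the Stk19 and Dxo starts.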

How the data were processed

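DNase-seq peak lists, footprints and FDR values of 2 adrenal samples were used, all made from the alignments of 1 sample each on mm10 without pooling, per the labels and the deposited file listing. The sources used here name no aligner, peak caller or footprint caller. The peak height is a signal normalised by the authors, and every deposited height was a whole multiple of a sample-wide step, to within 5% of that step. The FDR of each stretch of bases is an adjusted p-value deposited by the authors where it is under 0.05, and the footprints carry the deposited threshold of 0.01. A base that is not listed has no value. The shorter peak list was the main one and the longer the alternative.

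The members and lists were chosen with earlier results of these data known. Named were all members, all genes and shared peaks of the window, the 5 highest peaks of 1 replicate only, and, per gene list, the 4 highest promoters and those without a peak. The values of 1 complement gene and of the kidney marker list are not reported here. Further list genes and weaker peaks were named after their values were seen. Sites were merged over all lists with at least 1 bp of overlap. Genes came from GENCODE M21, the second Cyp21a1 start and all sequence from RefSeq's GRCm38.p6, which is mm10. Copies were aligned with blastn 2.17.0. Sequences of 36, 76 and 100 bases were counted on both strands of 65 assembly sequences, without 174 patches and other-strain sequences, using Python 3.11.15 and numpy 2.4.6. Peaks and FDR values were joined with bedtools 2.31.1. Counting and overlap code was tested on simulated data. Motifs were searched on both strands. Alternatives were list, flank width, overlap, promoter width, start and each replicate alone.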

Additional observations from a re-analysis of the deposited data

How the results depend on the processing

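With 1 group of 2 samples, nothing here separates animals from libraries. No paired analysis was possible because the labels give 1 group only. Against main counts of 15 peaks in replicate 1, 5 in replicate 2 and 4 shared regions, the longer list gave 24 peaks in replicate 1. With 10 kb on each side, replicate 2 had 1 peak and 2 footprints, replicate 1 had 37 footprints (59 in the main window), and 1 region was shared. With 50 kb, replicate 2 had 12 peaks and 46 footprints (21 in the main window), and 10 regions were shared. Asking for an overlap of 50% of each peak left 1 shared region. Taking each replicate alone gave 5 to 11 regions, and 0 to 1 promoter calls for Cyp21a1 and for C4a, both called in replicate 1 alone (1 without replicate 2). The shorter-list peak-base share of once-occurring sequences, 90.8% at 36 bases, was 100% at 76 and at 100 bases. The median log2 ratio was 0.69 with the main list, the longer list and the 50% highest peaks, each with 4 shared regions. With the 50% overlap it was 0.65, the value of the 1 region left. It was not computed in other settings. The C4a call was lost with a narrower promoter window or the most 5' start alone, and C4b gained 1 in replicate 1 with the longer list. Heights give no read counts, so counting error is unknown.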
